A study of Triticum aestivum with 12 samples.

Results

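WZF1 and the transcription factor genes LOC100037634, LOC100037599 and LOC100049032 are 4 of the 771 genes that the annotation of a wheat array names, and were read by 8 of its 61179 probe sets. They were taken by gene symbol and Entrez gene number from the platform annotation. They had been chosen by their values on these same arrays. WZF1, LOC100037634 and LOC100037599 were picked for a higher signal on the normal-K side of a split root system, and LOC100049032 for a lower signal on the low-K side. Those comparisons are therefore described here and not tested.

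The samples were roots of wheat seedlings of the genotype Tongzhou916. The seedlings were first grown on normal K, and at 3 weeks of age their roots were divided between a pair of compartments for 5 days. Low K was 0.005 mmol/L K2SO4 and normal K was 1.0 mmol/L. In C. LK both compartments held low K and in C. NK both held normal K. Plants with unequal compartments gave the low-K side, Sp. LK, and the normal-K side, Sp. NK. Each of the 4 conditions had 3 arrays, described as biological replicates made from pooled plants. The sources used here do not tell if a pair of Sp. LK and Sp. NK arrays with the same number shared plants.

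Transcription factors are proteins that bind DNA at particular sequences and raise or lower the transcription of nearby genes. Many of them are themselves regulated at the RNA level when a plant meets a change in nutrient supply. WZF1 encodes a zinc finger protein of wheat that was first described through its binding to an element of histone gene promoters. The annotation used here gives only locus numbers for the other three, which the study listed under transcription factor activity, so no family or target is attached to them. The array annotation names the WZF1 probe set LOC543182, and the RefSeq gene table carries WZF1 as a synonym of that locus. The study listed the WZF1 probe set under plastid, among the genes up-regulated in Sp. NK, and not under transcription factor activity.

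The array scaling gave every library a trimmed mean signal of 500.1, so all differences are relative to the whole of the array. The share of probe sets with a signal under 32, where little can be told from background, ran from 30.5% to 33.9% per array. The tissue label could be checked in part only. The 3 probe sets of the photosystem proteins PsbO and PsbP, markers of leaf, read from 4.68 to 231.23, with a median of 59.06. None of them had a median under 32. The 8 gliadin probe sets, markers of seed, had a median of 5.76 and read up to 172.78, and 7 of them had a median under 32. The 3 glutenin probe sets, also markers of seed, had a median of 42.38 and read up to 124.55, and 1 of them had a median under 32. No root marker of the list used was named in the annotation. In whole roots, a change in the share of a cell type and a change of RNA per cell cannot be told apart.

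WZF1 (Ta.103.1.S1_at) had the highest mean signal among the 8 probe sets, at 11.14 on the log2 scale and the 92.4th percentile of all probe sets. Its signal was 1827, 1630 and 2296 in C. NK and 3683, 2866 and 3471 in Sp. NK. It was 1805, 1928 and 2652 in Sp. LK. In C. LK it was 4231, 970.7 and 1899. The 3 Sp. NK arrays lay above every Sp. LK and every C. NK array, whereas the C. LK arrays spanned the whole range of the other conditions. The mean signals fell in the order Sp. NK (3340 ± 424, SD, n = 3), C. LK (2367 ± 1680), Sp. LK (2128 ± 458) and C. NK (1918 ± 342). Within this order C. LK overlapped with the conditions on either side of it, as did Sp. LK with C. NK.

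LOC100037634 was read by 2 probe sets of moderate signal. The brighter one (TaAffx.9231.2.S1_s_at, at the 69.1st percentile) gave 312.6, 251.4 and 211.8 in C. NK and 423, 525.4 and 383.2 in Sp. NK. It gave 204.5, 337.2 and 405.9 in Sp. LK and 422.4, 170.5 and 258.7 in C. LK. Only the Sp. NK and C. NK arrays were fully separated, and the highest Sp. LK array lay above the lowest Sp. NK array. The second probe set (TaAffx.9231.2.S1_x_at) gave 181.4, 142.6 and 151.9 in C. NK and 382.5, 356.7 and 334.6 in Sp. NK. It gave 147, 264.9 and 267.9 in Sp. LK and 404.1, 111.8 and 166.6 in C. LK. Here the 3 Sp. NK arrays stood above all C. NK and all Sp. LK arrays, and C. LK replicate 1 was again the highest of the 12. The suffix _s marks a probe set shared by transcripts of different genes and _x one with some probes similar to other sequences, so part of either signal may come from related transcripts.

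LOC100037599 gave signals of 594.8, 578 and 723.6 in C. NK and 1286, 937.8 and 1217 in Sp. NK with its brighter probe set (Ta.16082.1.A1_a_at, 82.6th percentile). The same probe set read 712.6, 766.4 and 845.9 in Sp. LK and 1951, 598.9 and 738 in C. LK. The Sp. NK arrays did not overlap with those of C. NK or Sp. LK, and C. LK replicate 1 was above all others. With the second probe set (Ta.16082.1.A1_at) the signals were 480.9, 598.5 and 662.7 in C. NK and 1240, 796.5 and 1173 in Sp. NK. They were 539.5, 596.1 and 789.9 in Sp. LK and 1919, 437.9 and 650.9 in C. LK. The gap between the lowest Sp. NK and the highest Sp. LK array was narrow for this probe set.

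LOC100049032 had another order. Its bright probe set (Ta.8614.1.S1_at, 81.8th percentile) gave 458.8, 1012 and 1372 in C. NK and 974.3, 1235 and 1342 in C. LK. It gave 789.7, 525.5 and 642.1 in Sp. LK and 636.5, 446.8 and 827.9 in Sp. NK. All C. LK arrays were above all arrays of both split sides, and the C. NK arrays overlapped with every other condition. The mean signals were 1184 ± 189 (SD, n = 3) in C. LK, 948 ± 460 in C. NK, 652 ± 132 in Sp. LK and 637 ± 191 in Sp. NK, with the split sides at nearly the same level. The other 2 probe sets of this gene were near background. TaAffx.81034.2.S1_at ranged from 3.224 to 46.24 and TaAffx.81034.2.S1_x_at from 2.347 to 34.27 over the 12 arrays.

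**Figure D1:**
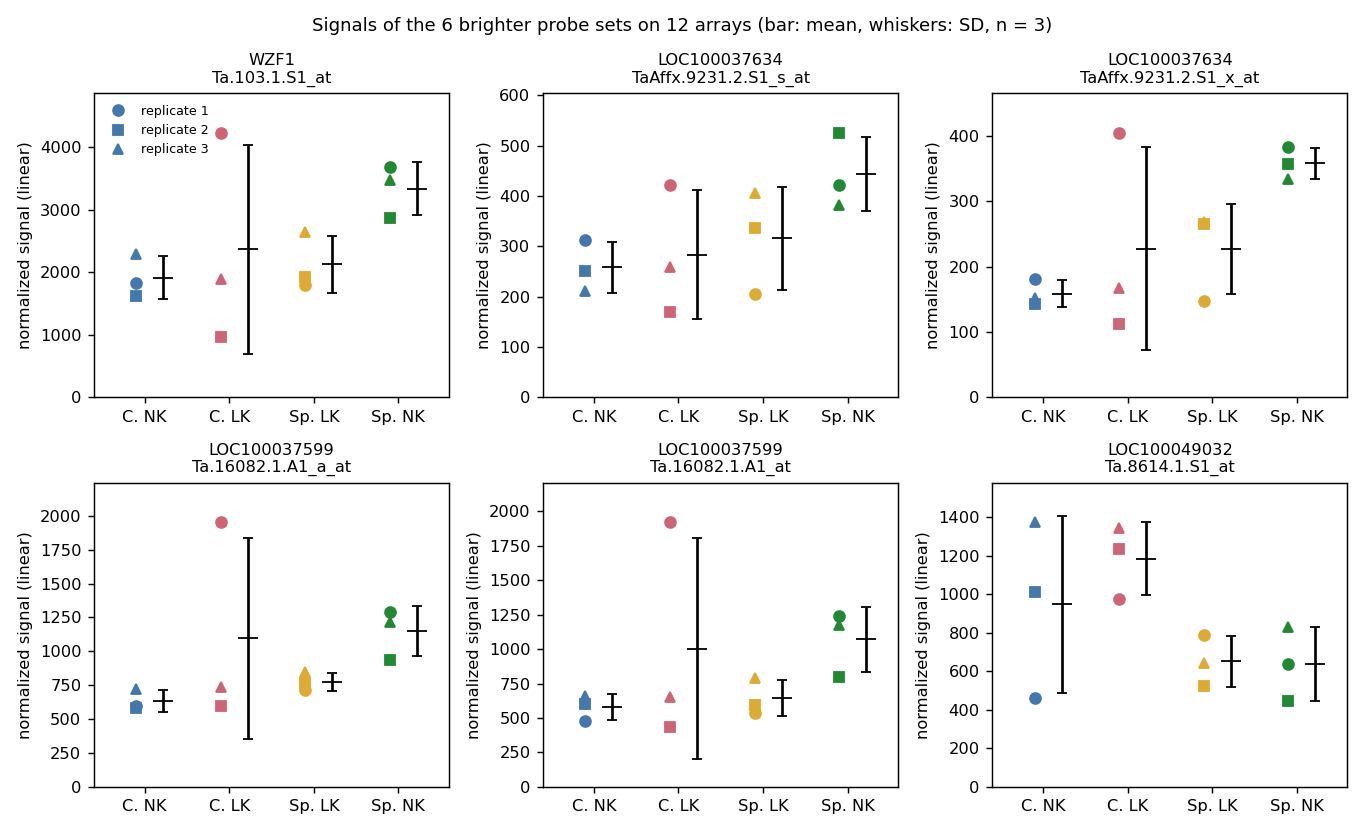
Normalized linear signal (vertical axis) of the 6 brighter probe sets in the 4 conditions (horizontal axis), with 1 symbol per array and, beside the symbols, the mean and SD of 3 arrays. The Sp. NK arrays sit above the C. NK arrays in the first 5 panels, where C. LK replicate 1 is the top point of a widely spread C. LK group, and for LOC100049032 both split sides sit below C. LK.

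Agreement between probe sets of one gene was close for LOC100037634 and LOC100037599 and absent for LOC100049032. Over the 12 arrays the log2 signals of the 2 LOC100037634 probe sets correlated at r = 0.94 (Spearman 0.94). After removal of the condition means r was 0.91. For LOC100037599 the values were r = 0.97 (Spearman 0.88), and 0.98 after removal of the condition means. Probe sets made for one target can share probes and are read on the same arrays, so these are descriptions of the array and carry no p. The dim LOC100049032 probe sets correlated with Ta.8614.1.S1_at at r = -0.18 and -0.55, and with each other at r = -0.04. They were not used to describe the gene.

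A further 6 probe sets carry the same cluster number in their names as a member, with no gene symbol in the annotation. Ta.16082.2.S1_x_at and Ta.16082.2.S1_at followed the brighter LOC100037599 probe set at r = 0.99 and 0.95 over 12 arrays. Ta.8614.2.S1_x_at, Ta.8614.3.S1_x_at and Ta.8614.3.S1_at followed the bright LOC100049032 probe set at r = 0.83, 0.74 and 0.50. TaAffx.9231.3.S1_at, of the LOC100037634 cluster number, had mean signals of 11.7 to 34.2 by condition, near background. Wheat carries related copies of most genes in its subgenomes, and the files do not show which copy each probe set reads.

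**Figure D2:**
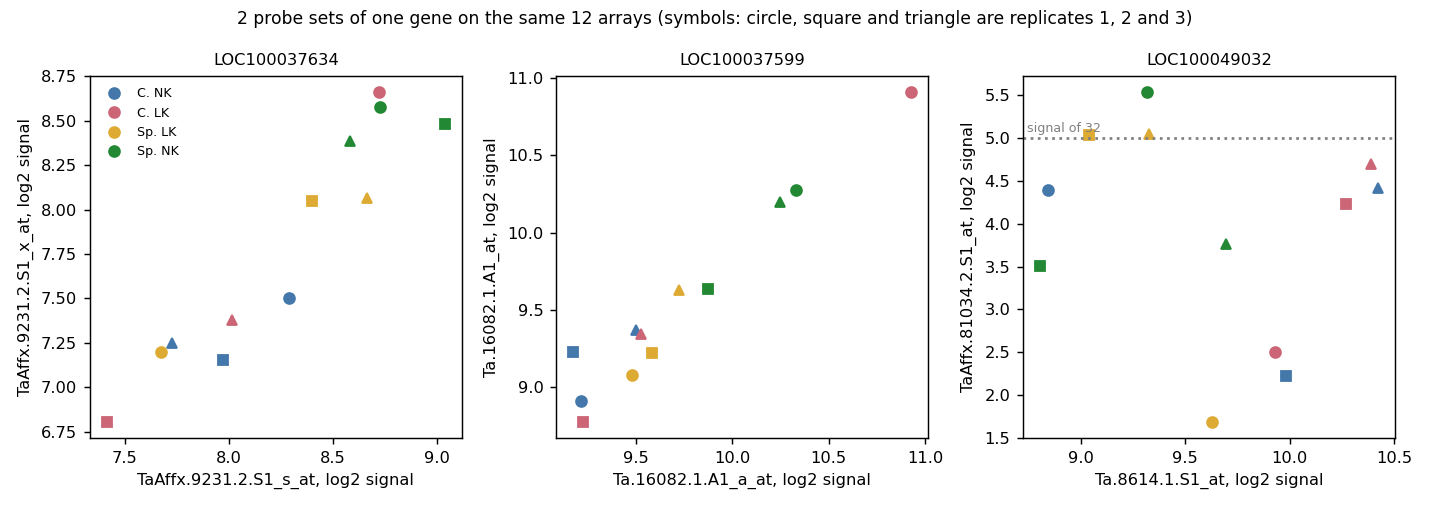
The log2 signal of one probe set against that of another of the same gene, with 1 symbol per array, coloured by condition. The points of LOC100037634 and LOC100037599 rise together (r = 0.94 and 0.97), while for LOC100049032 most points of the dim probe set lie under the dotted line at a signal of 32 and follow no common order.

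The comparison of the normal-K side with uniform normal K asked how roots on normal K change when the other compartment holds low K. All 5 probe sets of WZF1, LOC100037634 and LOC100037599 were higher in Sp. NK, and this is the contrast they were picked in. The signal of WZF1 was 1.75-fold higher (log2 fold change 0.81, SE 0.37). LOC100037634 was 1.72-fold (0.79, SE 0.31) and 2.27-fold higher (1.18, SE 0.38) with its 2 probe sets, and LOC100037599 was 1.81-fold (0.85, SE 0.32) and 1.83-fold higher (0.87, SE 0.39). For each of the 5, every Sp. NK array was above every C. NK array, a separation in this direction found for 4.43% of all probe sets. These 5 of the 8 passed the study thresholds (a change of more than 1.5-fold with an unadjusted p under 0.05), against 3.38% of all probe sets in either direction and 1.79% upward. That count follows from how the genes were picked, and nothing is read from it. LOC100049032, which was not picked here, had a log2 fold change of -0.48 (SE 0.33, Ta.8614.1.S1_at). Its size hung on single C. NK arrays. Without C. NK replicate 1 it was -0.93 (SE 0.25), past the thresholds, and without C. NK replicate 3 it was -0.14.

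The log2 fold changes of the 5 probe sets stayed between 0.65 and 1.28 with any array left out, whereas the number past the thresholds moved with the error. All 5 passed in a fit of the 6 arrays compared (SE 0.15 to 0.20) and in the methods' t-test (SE 0.12 to 0.24). Both use the arrays on which the genes were picked, so nothing is read from their passing. With signals under 32 raised to 32 before the fit, the only one of the 5 past the thresholds was TaAffx.9231.2.S1_x_at, the probe set with the largest log2 fold change, and without C. NK replicate 2 again only that one. The 3′ minus 5′ signal of the sucrose synthase control, a measure of RNA degradation, was 3.71 to 4.2 in Sp. NK and 4.29 to 4.51 in C. NK on the log2 scale, without overlap, and its part in these differences was not tested. The G-6-PDH control overlapped between the same arrays.

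The low-K side against uniform low K shares no array with the contrast above, and was the comparison in which WZF1, LOC100037634 and LOC100037599 could be tested. None of the 5 probe sets passed the thresholds. The log2 fold change of WZF1 in Sp. LK vs. C. LK was 0.08 (95% confidence interval -0.71 to 0.88, adjusted p = 0.975, limma with Benjamini-Hochberg adjustment over all probe sets). LOC100037634 had 0.20 (-0.48 to 0.87, adjusted p = 0.917) and 0.16 (-0.65 to 0.97, adjusted p = 0.949) with its 2 probe sets. LOC100037599 had -0.30 (-0.98 to 0.38, adjusted p = 0.856) and -0.37 (-1.22 to 0.48, adjusted p = 0.858). For WZF1 and the brighter LOC100037634 probe set the intervals hold the changes measured in Sp. NK vs. C. NK, so a rise of that size is not excluded. For the other probe sets they end below those changes, but these intervals take their error from all arrays. The methods' t-test takes it from the compared arrays alone, and its SE was larger. It was 0.62 for TaAffx.9231.2.S1_x_at, 0.53 for Ta.16082.1.A1_a_at and 0.66 for Ta.16082.1.A1_at. A rise of that size is therefore not called excluded for these either. Whether the responses of the split sides differ from each other was not tested.

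Single C. LK arrays set the sign of these values. Without C. LK replicate 1, WZF1 was 0.63 higher on the log2 scale in Sp. LK (SE 0.26) and TaAffx.9231.2.S1_x_at of LOC100037634 was 0.68 higher (SE 0.29), and both passed the study thresholds. Without C. LK replicate 2, the log2 fold change of WZF1 was -0.44 (SE 0.28), that of TaAffx.9231.2.S1_x_at was -0.25 (SE 0.35), and Ta.16082.1.A1_at of LOC100037599 passed with -0.82 (SE 0.36). No direction can be given for the 3 genes in this comparison.

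LOC100049032 was picked for its fall in Sp. LK vs. C. LK. Its bright probe set had a log2 fold change of -0.87 there (SE 0.33), with every Sp. LK array below every C. LK array. It was the 1 of 8 probe sets past the thresholds, which 4.78% of all probe sets passed in either direction and 1.79% in this one. Non-overlap in this direction was found for 5.18% of all probe sets. It no longer passed without C. LK replicate 3, without Sp. LK replicate 2, with signals under 32 raised to 32, or in a fit without the variance trend, and over all arrays left out in turn the log2 fold change stayed between -1.01 and -0.72. The probe sets of the same cluster number, which the rule did not use, had log2 fold changes of -0.54 (Ta.8614.2.S1_x_at, SE 0.32), -0.37 (Ta.8614.3.S1_at, SE 0.22) and -0.29 (Ta.8614.3.S1_x_at, SE 0.20). None of these passed the thresholds.

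Uniform low against uniform normal K gave no probe set of the 8 past the thresholds, which 3.65% of all probe sets passed. WZF1 had a log2 fold change of 0.06 (SE 0.37), and LOC100037634 of 0.05 (SE 0.31) and 0.31 (SE 0.38). LOC100037599 had 0.60 (SE 0.32) and 0.51 (SE 0.39), most of it from 1 array. Without C. LK replicate 1 these fell to 0.08 and -0.11, and without C. LK replicate 2 they were 0.93 and 0.96, both past the thresholds. For WZF1 the same omissions gave -0.48 and 0.58. LOC100049032 had 0.45 (SE 0.33), and leaving out C. NK arrays moved it from -0.01 (replicate 1) to 0.78 (replicate 3), which passed the thresholds. This comparison shares the C. NK arrays with the one that picked the first 3 genes, and the sucrose synthase 3′ minus 5′ signal was lower in C. LK (3.86 to 4.06) than in C. NK. The part of that gap in these values was not tested.

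The split sides were compared directly in Sp. LK vs. Sp. NK, which shares the Sp. NK arrays with the contrast that picked the 3 genes. Their 5 probe sets were all lower on the low-K side, with log2 fold changes of -0.66 for WZF1 (SE 0.37), -0.54 (SE 0.31) and -0.71 (SE 0.38) for LOC100037634, and -0.56 (SE 0.32) and -0.73 (SE 0.39) for LOC100037599. For 4 of them, all but TaAffx.9231.2.S1_s_at, every Sp. LK array was below every Sp. NK array, which held for 3.39% of all probe sets. None of the 8 passed the thresholds, against 2.75% of all probe sets. A fit of only the 6 arrays compared put 3 past the thresholds, namely WZF1, TaAffx.9231.2.S1_x_at and Ta.16082.1.A1_at. The share of all probe sets past them in that fit was not counted, so nothing is read from the 3. LOC100049032 had 0.06 (SE 0.33), and its levels on the split sides overlapped.

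No probe set of the array reached an adjusted p under 0.05 in any of the 4 comparisons with limma. Of 61179 probe sets, 4584 had an unadjusted p under 0.05 for Sp. LK vs. C. LK and 2600 for Sp. NK vs. C. NK. The counts were 3140 for C. LK vs. C. NK and 1912 for Sp. LK vs. Sp. NK. With no change anywhere, a share of about 0.05 of the probe sets would have such a p.

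**Figure D3:**
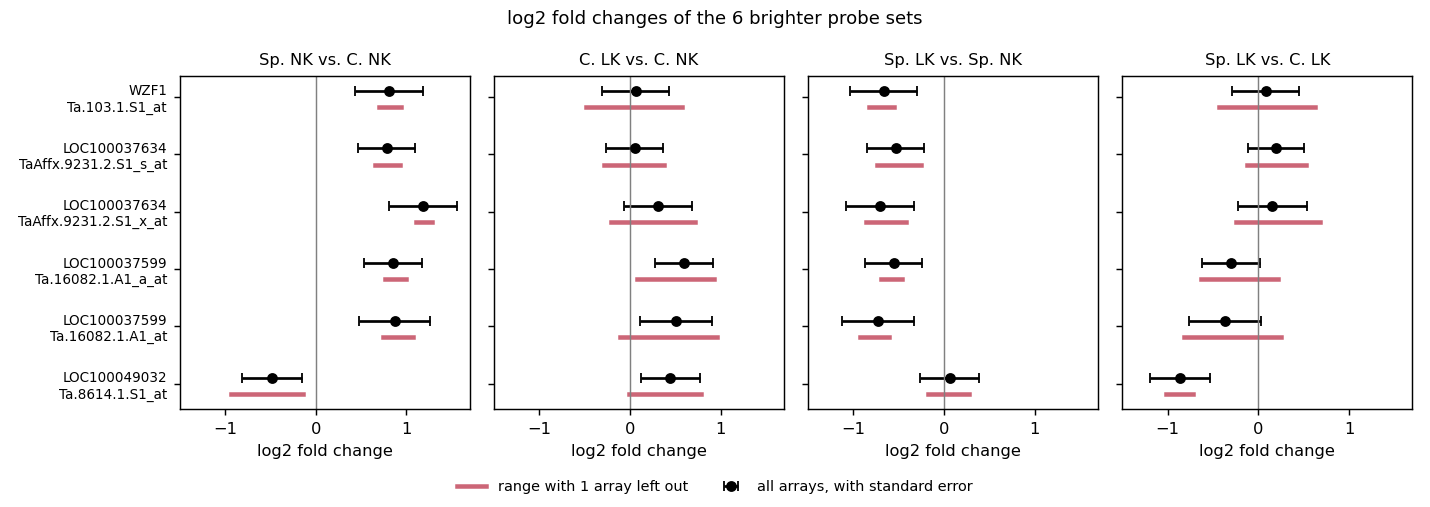
The log2 fold change (horizontal axis) of the 6 brighter probe sets (vertical axis) in 4 comparisons, as black points with standard errors, and in red the range when each array is left out in turn. The red ranges of the first 5 probe sets stay above 0 in Sp. NK vs. C. NK and below 0 in Sp. LK vs. Sp. NK, and span 0 in Sp. LK vs. C. LK.

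The replicates of C. LK were far apart for the 3 genes. Replicate 1 was the highest and replicate 2 the lowest of the condition in all 5 probe sets. The highest over the lowest signal was 4.36 for WZF1, 2.48 for the brighter LOC100037634 probe set and 3.26 for the brighter LOC100037599 probe set. Among the 30590 brighter probe sets, whose mean log2 signal was not below that of the median probe set, this ratio had a median of 1.31 in C. LK and a 90th percentile of 1.96. WZF1 stood at the 98.8th percentile of that spread, LOC100037634 at the 95.3rd and LOC100037599 at the 97.7th, while LOC100049032 was at the 58.7th. LOC100049032 was instead scattered in C. NK, at the 97.6th percentile there.

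C. LK replicate 1 did not stand apart as an array. Its median correlation with the other C. LK arrays was 0.97, and 0.94% of the brighter probe sets were more than 2-fold above both other arrays of its condition, but 4 of the member probe sets were. C. LK replicate 2 had the lowest median correlation with all other arrays, at 0.959 against 0.962 to 0.973, and 1.84% of the brighter probe sets were more than 2-fold below both other arrays of its condition, the most among the 12 arrays. In Sp. LK the order also held across genes, with replicate 3 the highest and replicate 1 the lowest in all 5 probe sets.

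The 3 genes thus kept one order of the arrays in C. LK and Sp. LK, but not in C. NK and Sp. NK. In Sp. NK replicate 2, WZF1 had its lowest signal of the condition and the brighter LOC100037634 probe set its highest. Over the 12 arrays WZF1 correlated with the brighter LOC100037634 probe set at r = 0.81 (Spearman 0.85) and with the brighter LOC100037599 probe set at r = 0.89 (Spearman 0.94). Of the deviations from the condition means, which hold no difference between conditions, r was 0.71 and 0.94. Without C. LK replicates 1 and 2, the arrays farthest from the WZF1 median, r of the log2 signals over the other 10 was 0.71 and 0.95. Those 10 still hold the difference between Sp. NK and C. NK for which the genes were picked. A correlation of LOC100049032 with WZF1 was weak (r = -0.27, and -0.04 of the deviations), and that with the brighter LOC100037634 probe set was negative (r = -0.66, and -0.61 of the deviations). All points share their arrays and their scaling, the genes were picked together, and no p is given.

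**Figure D4:**
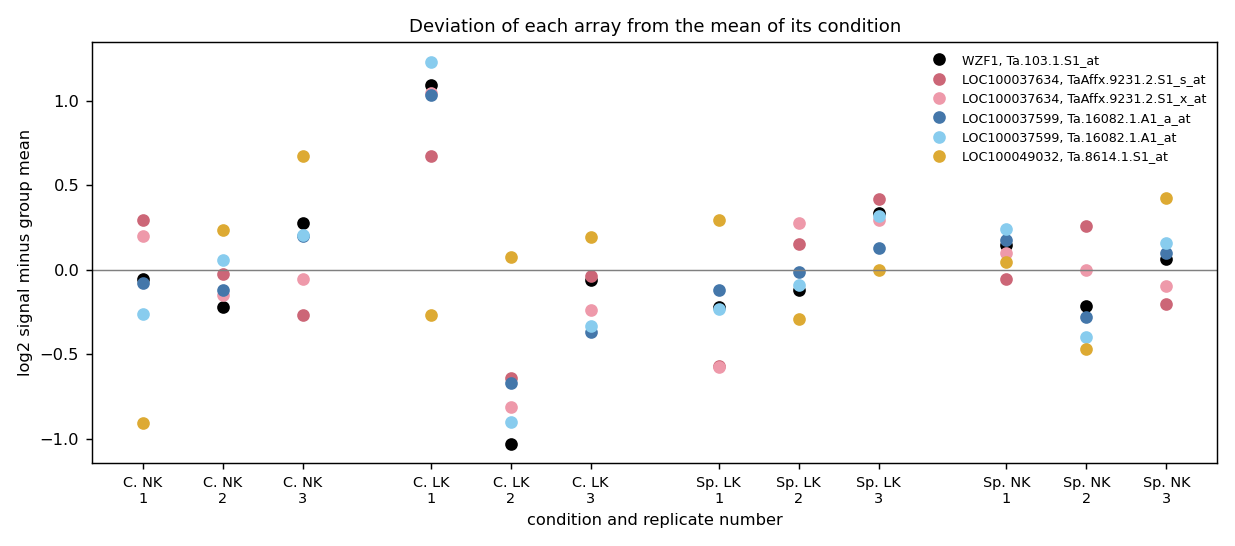
Deviation of the log2 signal from the mean of its condition (vertical axis) on each of the 12 arrays (horizontal axis), with 1 point per probe set. The 5 probe sets of WZF1, LOC100037634 and LOC100037599 lie together above 0 in C. LK replicate 1 and Sp. LK replicate 3 and below 0 in C. LK replicate 2 and Sp. LK replicate 1, while LOC100049032 has its lowest point in C. NK replicate 1.

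Against the rest of the array, 69 of 30584 brighter probe sets (0.23%) had r above 0.9 with WZF1, and the median r was -0.02. Among 858 brighter probe sets with a gene symbol of their own, the most similar to WZF1 were those of LOC542847 (r = 0.86), LOC100049055 (r = 0.84) and LOC100037633 (r = 0.79). LOC542847 was also the most similar to LOC100037599, with r = 0.94 and 0.88 for its 2 probe sets, ahead of LOC100049055 (r = 0.80). The closest to LOC100037634 were LOC542999 (r = 0.81 with both of its probe sets) and LOC543096 (r = 0.80). For LOC100049032 all of the 3 closest probe sets belonged to LOC543463 (r = 0.84, 0.84 and 0.83). The tables used give these loci no descriptive names.

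The study listed 11 probe sets under transcription factor activity, chosen on these arrays, of which 4 belong to the genes described here. Of the 7 listed for a rise in Sp. NK, 6 passed the thresholds upward in Sp. NK vs. C. NK, as did 1.79% of all probe sets (median log2 fold change 0.94, against 0.00 over all), none passed in Sp. LK vs. C. LK (median -0.26, against 0.04), and 2 fell in Sp. LK vs. Sp. NK, as did 1.14% of all probe sets. C. LK replicate 1 was the highest and replicate 2 the lowest of C. LK in all 7. The unnamed Ta.9239.1.A1_x_at and Ta.17378.1.S1_at of that list correlated with WZF1 at r = 0.98 and 0.95. Of the 4 listed for a fall in Sp. LK, 3 passed downward in Sp. LK vs. C. LK, as did 1.79% of all probe sets (median -0.75, against 0.04 over all). None passed in Sp. NK vs. C. NK, where all 4 were below 0 (median -0.39, against 0.00). The list was chosen by these contrasts, and nothing is read from its counts there. The 3 that are not LOC100049032 correlated with Ta.8614.1.S1_at at r = 0.92 (TaAffx.128540.1.S1_at), 0.89 (Ta.27144.1.S1_a_at) and 0.70 (TaAffx.70539.1.A1_at). In these 4, replicate 3 was the highest of its condition in both C. NK and Sp. NK.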

How the data were processed

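RNA of the 12 root samples was hybridised to the Affymetrix wheat array. The signals were normalized by the authors (MAS 5.0, GeneSpring 11.0), and the deposited values are log2 signals, 1 per probe set and array. Raw intensities and detection calls were not used here. Signals were converted to the linear scale for display.

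The 111 array controls were left out and 61179 probe sets were fitted with limma 3.58.1 in R 4.3.3 (means of 4 conditions over 12 arrays, eBayes with a variance trend). The study thresholds were a change of more than 1.5-fold with an unadjusted p under 0.05. The Benjamini-Hochberg adjustment ran over all 61179. The code was tested on simulated data. Precision is limited by 3 arrays per condition. The limma p-values rest on the spread between pools within all 4 conditions, moderated across probe sets.

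The members, lists and tests were chosen with earlier results of these data known. The named genes were all 8 member probe sets, the 3 most similar annotated probe sets of each gene, and the study's transcription factor list. A list of transcription factor names was also searched, and it matched 0 genes, since the annotation holds locus numbers. It pairs 1273 probe sets with 1 symbol, 59906 with none and 0 with several. Of the former, 1272 were found in the RefSeq gene table of IWGSC CS RefSeq v2.1, and no coordinates were taken from it.

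Deviations from the condition means of same-numbered arrays correlated above 0.1 in 9 of 18 pairs. Between Sp. NK and C. NK alone all 3 pairs did (r = 0.27, 0.16 and 0.28). The replicate number as a block left 5 member probe sets past the thresholds in that comparison, as without it.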

Additional observations from a re-analysis of the deposited data

How the results depend on the processing

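The number of member probe sets past the study thresholds moved with the fit. The share of all probe sets past them was counted in the reported fit only, so the counts below have no such share beside them. In Sp. LK vs. C. LK (1 in the reported fit) it was 0 with signals under 32 raised to 32 and 0 without the variance trend, and 0 to 3 with an array left out. In Sp. NK vs. C. NK (5) it was 1 with the floor, 3 in a fit of the brighter probe sets and 2 without the trend, and 1 to 5 with an array left out. In C. LK vs. C. NK (0) it was 0 to 2 with an array left out. In Sp. LK vs. Sp. NK (0) it was 1 after centring on the median, 3 in a fit of the 6 arrays compared, 3 with a replicate block in that fit (chosen after seeing the data), 2 with the methods' t-test, and 0 to 3 with an array left out. The floor and the missing trend changed the error and not the signals of the 6 brighter member probe sets. A replicate block in the fit of 12 arrays gave 1, 5, 0 and 0 in the same order, and so changed no count. For the 5 probe sets of WZF1, LOC100037634 and LOC100037599 the direction in Sp. LK vs. C. LK reversed in 7 values, each with 1 array left out. For WZF1 the log2 fold change ran from -0.44 without C. LK replicate 2 to 0.63 without C. LK replicate 1. The same omissions gave -0.12 to 0.53 (TaAffx.9231.2.S1_s_at) and -0.25 to 0.68 (TaAffx.9231.2.S1_x_at) for LOC100037634, and -0.63 to 0.22 (Ta.16082.1.A1_a_at) and -0.82 to 0.25 (Ta.16082.1.A1_at) for LOC100037599. Without Sp. LK replicate 3, WZF1 had -0.09 and TaAffx.9231.2.S1_s_at had -0.01. The cause was not tested. The r between probe sets of one gene was 0.94 and 0.97 after quantile normalization. Signals under 32 limit what can be said of the dim LOC100049032 probe sets, of which TaAffx.81034.2.S1_at also changed sign there, from 0.11 to between -0.54 and 1.23 with 1 array left out.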

Other observations

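Histone genes were set beside WZF1 because the protein was first described through a histone promoter element. For 17 brighter probe sets of 5 genes of histones H2A and H2B, a list added after the other values were seen, r with WZF1 over the 12 arrays ran from -0.44 to 0.11 with a median of -0.14, against a median of -0.02 over the brighter probe sets. The list held 1 dimmer probe set, with r = 0.59. It held no other histones, and whether the WZF1 protein binds the promoters of the listed genes was not tested.

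The unnamed Ta.9239.1.A1_x_at was the closest to WZF1 among the probe sets of the study's transcription factor list, with r = 0.98 and, of the deviations from the condition means, 0.995. In C. LK its highest signal was 7.32 times its lowest, and for Ta.17378.1.S1_at this ratio was 9.14, both wider than the 4.36 of WZF1.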
